A study of Homo sapiens with 12 samples.

Results

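The mitochondrial ribosomal proteins (MRPs) are the nuclear-encoded protein subunits of the ribosome that works inside mitochondria. They were selected by gene symbol: every gene named MRPL or MRPS followed by a number and at most 1 letter, plus DAP3, without pseudogenes. This rule was met by 76 of the 12357 genes counted, 49 of the large subunit, 26 of the small subunit and MRPS36. A further 3 annotated genes with such names, MRPL12, MRPL53 and MRPS17, were not analysed here. MRPS36 carries an MRP name but is known as a component of the 2-oxoglutarate dehydrogenase complex, so that it was kept under the naming rule and placed in neither subunit.

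Ribosome footprints, the stretches of mRNA covered by ribosomes, were sequenced from 3 EBV-transformed lymphoblastoid B-cell lines of wild-type genotype, GM18505, GM19193 and GM19204. Each line gave a control culture that received water and a culture treated for 30 min with sodium arsenite, a heavy metal that causes oxidative stress, which makes 3 cultures per group. Each culture was sequenced as a library T, in which Cas9 cut ribosomal RNA sequences, and a library U, in which it did not, and received 1 of 3 pools of 16 synthetic oligomers as an external standard. The study set out to measure changes in ribosome occupancy when translation shifts as a whole. No mRNA levels are among the values used here, so a change in mRNA and a change in ribosomes per mRNA cannot be told apart. The standard was added per amount of digested RNA, so that the number of cells does not enter the scale, while a change in total RNA per cell and a change in footprints per cell cannot be told apart.

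Mitochondria translate only the few proteins that their own genome encodes, all of them subunits of the oxidative phosphorylation system. The ribosome that does so takes its RNAs from mitochondrial DNA, while its proteins are made on cytosolic ribosomes and imported. Some of these proteins descend from bacterial ribosomal proteins, and the others have no bacterial counterpart and are called mitochondria-specific. The mRNAs of MRPs are therefore cytosolic mRNAs, and their footprints report on cytosolic translation.

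Counts in genes ranged from 1326231 to 6467049 per culture, and the MRPs received 28673 to 37133 of them in the control cultures and 4021 to 8003 in the arsenite cultures. The cell type labels were checked on marker genes: 8 of 8 B cell markers were in the table, and 0 of 5 T cell, 0 of 5 myeloid and 0 of 4 erythroid markers. Of 5 epithelial and fibroblast markers 3 were in the table, and their summed level was 4.48 to 7.82 CPM (counts relative to the total of the culture) in the control and 15.4 to 109 CPM in the arsenite cultures. Scaled by the oligomers (the spike-in scale below), the sum went from 25.3 to 24.7 in GM18505 and from 31.3 to 27.4 in GM19204. In GM19193 it went from 47.5 to 277, where COL1A2 had 20 raw counts in control and 239 in arsenite. Whether RNA of such origin has a part in any change below was not tested.

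In control cultures the MRPs differed widely in footprint density, the CPM per 1000 bases of coding sequence. MRPL52 and MRPL51, both mitochondria-specific proteins of the large subunit, stood highest. The density of MRPL52 was 419, 416 and 402 in the control cultures of GM18505, GM19193 and GM19204, and that of MRPL51 was 341, 519 and 376, so that both had a mean of 412 with an SD of 8.95 and 94.5 (n = 3). MRPL20 and MRPS21, homologues of bacterial proteins, followed with 312 ± 16.1 and 311 ± 56.6 (SD, n = 3), and MRPL23, which lies at the exit of the peptide tunnel, with 283 ± 29.9. In this order the ranges over the 3 lines overlapped between neighbours, except between MRPL51 and MRPL20. At the other end stood MRPL30, a homologue of a bacterial protein, with 6.26, 8.10 and 6.72, then MRPL38, a protein of the central protuberance, with 8.24, 10.5 and 7.87. The ranges of these 2 genes overlapped. MRPL46, another protein of the central protuberance, had 15.4, 11.4 and 18.5 and lay above both. The median over the 76 genes was 108 in density, beside 18.9 over the 10872 protein-coding genes, and 71 of the 76 lay above that second value. The MRPs are short: their coding lengths ran from 195 to 1317 bases, and 76 of 76 were shorter than the median protein-coding gene of 1437 bases. Some of the lowest genes overlap another gene, and the part of that overlap in their counts was not tested. Exons of another gene on the same strand covered 41.1% of the exonic bases of MRPL38, 11.9% of those of MRPL30, 11.3% of those of MRPL46 and 29.2% of those of MRPL2.

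MRP genes are spread over 21 chromosomes, with 9 on chromosome 1. Promoters from 250 bases before to 50 bases after the start were taken from RefSeq (GRCh38.p14) and matched 67 of the 76 by symbol. They were searched on both strands for short letter strings that stand for factors known to act on genes of mitochondrial biogenesis: CCGGAAG for ETS factors such as GABP, CGCANGCG for NRF1 and AAGATGGC for YY1. The YY1 letters occurred in 20 of 67 MRP promoters (29.9%), in 5.92% of those of 8936 measured protein-coding genes and in 3.03% of all 27305 promoters. These letters include an ATG and so can also fall on a start codon. Before the start alone they occurred in 7.46% of MRP and 1.92% of measured protein-coding promoters. The ETS letters occurred in 41.8%, 20.7% and 10.7% of the same 3 sets, and the NRF1 letters in 19.4%, 19.4% and 10.6%. The letters of YY1 and ETS factors can share their last and first bases, AAG, but in no MRP promoter did they overlap. Of the 67 promoters 21 held none of the 3 strings, 32 held a single kind, 13 held 2 kinds and 1 held 3 kinds. Of the strings common in promoters generally, GGGCGG (SP1) was in 61.2% of MRP and 70.04% of measured protein-coding promoters, CCAAT in 28.4% and 37.4%, and TATAAA in 2.99% and 5.61%. A match is a string of letters and not a site. The 100 bases just before the start follow for 6 of the named genes that hold ETS or YY1 letters there. They are examples of such letters and do not stand for the genes with extreme changes. In the same stretch MRPS15, MRPL37 and MRPL19, with the largest falls, held none of the 3 strings. Nor did MRPL44, MRPS27 and MRPL50, which had small falls. MRPL52, MRPL20 and MRPS21 were among the densest in control, MRPL58 and MRPS18A had some of the largest falls, and MRPS31 had a small one. Each is written in the direction of transcription, and capitals mark the ETS letters or, in MRPL52, the YY1 letters.
MRPL52 (chr14:22829787-22829886, + strand): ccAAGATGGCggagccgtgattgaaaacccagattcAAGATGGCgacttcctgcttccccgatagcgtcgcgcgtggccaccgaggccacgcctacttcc
MRPL20 (chr1:1407294-1407393, - strand): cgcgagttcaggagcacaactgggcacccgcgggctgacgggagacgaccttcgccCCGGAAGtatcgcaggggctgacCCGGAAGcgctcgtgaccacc
MRPS21 (chr1:150293761-150293860, + strand): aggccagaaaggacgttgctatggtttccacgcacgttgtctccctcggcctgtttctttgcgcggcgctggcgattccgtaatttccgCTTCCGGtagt
MRPL58 (chr17:75012570-75012669, + strand): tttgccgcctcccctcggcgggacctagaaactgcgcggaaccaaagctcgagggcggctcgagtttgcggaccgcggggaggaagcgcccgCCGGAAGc
MRPS18A (chr6:43687792-43687891, - strand): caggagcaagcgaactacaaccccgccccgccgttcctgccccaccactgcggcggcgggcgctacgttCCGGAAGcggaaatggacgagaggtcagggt
MRPS31 (chr13:40771191-40771290, - strand): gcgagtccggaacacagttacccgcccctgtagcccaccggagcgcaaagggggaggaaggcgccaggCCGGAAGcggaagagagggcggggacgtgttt

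Arsenite lowered the footprints of nearly every MRP. On the spike-in scale, where a culture's counts were divided by a factor that 7 well-read oligomers gave (10 or more reads in each library), 75 of 76 fell at an adjusted p under 0.05 in edgeR, where 74.1% of all genes tested did. None rose in edgeR, where 1.12% of all genes did, also not at an unadjusted p under 0.05. None rose in DESeq2 on this scale or in limma on the 12 separate libraries, with counts without normalization or after RUVg. The exception, MRPL30, had a mean of 15.7 counts per culture, a log2 fold change of -0.93 ± 0.46 (SE) and an edgeR adjusted p of 0.0562. The arsenite cultures lay below the control cultures without overlap for 76 of 76 MRPs on this scale, where 68.7% of all genes did so.

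Since most genes fell, the share of MRPs that passed the test says little, and the size of the fall says more. The median log2 fold change was -2.58 over the MRPs and -1.78 over all genes, which leaves 16.7% and 29.0% of the control level. The quartiles of the MRPs were -2.77 and -2.34, those of all genes -2.34 and -0.86. Of the 76 genes 72 lay below the median of all genes, and 70 fell by more than 4-fold. The 4 above it were MRPL30, MRPL38, MRPL2 and MRPL44. As a sum, MRP counts took 0.555%, 0.561% and 0.574% of the gene counts in the control cultures of GM18505, GM19193 and GM19204. The arsenite cultures gave 0.303%, 0.327% and 0.278%, so that the groups did not overlap (0.563% ± 0.0097 and 0.303% ± 0.024, SD, n = 3 each). On the spike-in scale the sum in arsenite was 16.1%, 24.3% and 12.4% of its control.

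**Figure D1:**
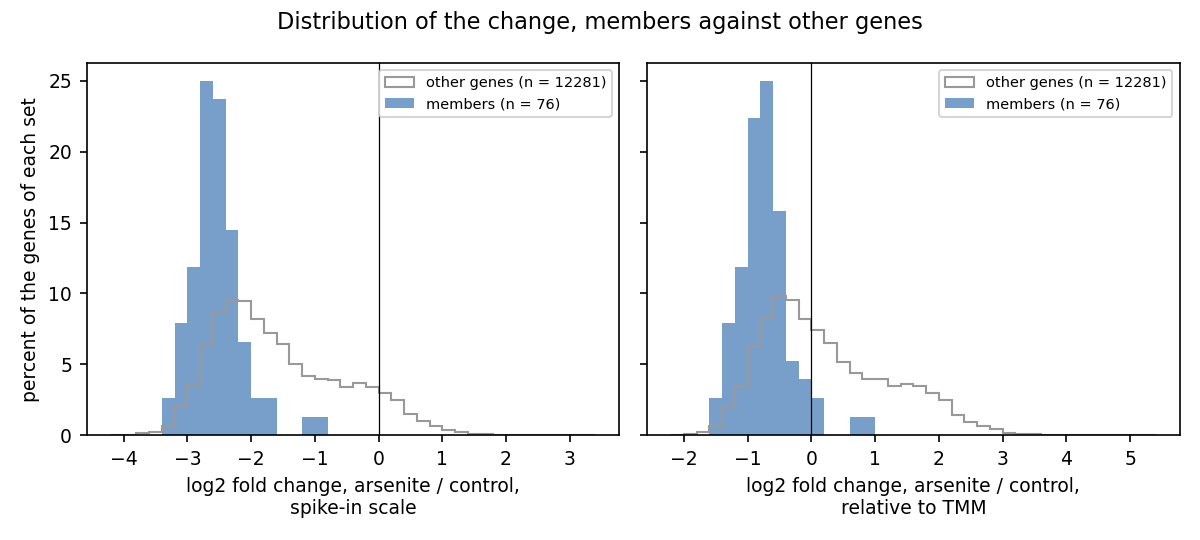
Percent of genes (vertical axis) by log2 fold change of arsenite against control, for the 76 MRPs (filled) and the 12281 other genes (outline), on the spike-in scale at left and relative to TMM at right. The MRPs form a narrow peak around a median of -2.58 at left and -0.76 at right, with a few genes to the right of it.

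Among MRPs with a mean of at least 50 counts the largest fall was that of MRPS15, a small subunit protein with a bacterial homologue. Its counts on the spike-in scale were 431, 516 and 531 in the control cultures of GM18505, GM19193 and GM19204 and 43.5, 97.1 and 21.3 in the arsenite cultures. The log2 fold change was -3.40 ± 0.43 (SE, edgeR adjusted p = 1.69e-13), and the fall in GM19204 was the steepest. MRPL37, a mitochondria-specific protein of the large subunit, went from 789, 788 and 1078 to 72.9, 131 and 73.1, a log2 fold change of -3.30 ± 0.40. MRPL19, a homologue of a bacterial protein, went from 396, 552 and 503 to 38.8, 87.8 and 42.7, a log2 fold change of -3.17 ± 0.41. In these 3 genes the highest arsenite culture was GM19193, and it lay far below every control culture. MRPL58, a peptidyl-tRNA hydrolase that has become a structural part of the large subunit, had 228, 332 and 330 in control and 29.4, 46.5 and 26.7 in arsenite (log2 fold change -3.14 ± 0.43). MRPS18A, a protein of the large subunit despite its name, had 388, 463 and 526 in control and 37.6, 77.5 and 50.3 in arsenite (log2 fold change -3.10 ± 0.41). Exons of RSPH9 on the other strand overlap 50.9% of the exonic bases of MRPS18A. Whether reads were counted by strand is not stated, so the effect of this overlap on the counts is not known. Other MRPs also had exons overlapped on the other strand, among them MRPS18C (40.2%) and MRPL51 (27.6%).

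The smallest falls at that depth were those of MRPL2, MRPL44, MRPS27, MRPS31 and MRPL50, all of which passed the test. MRPL2 belongs to the core of the large subunit around the site of peptide bond formation. It had 87.7, 90.2 and 132 in control and 22.4, 45.4 and 26.7 in arsenite, a log2 fold change of -1.75 ± 0.42 (SE, edgeR adjusted p = 5.54e-05). MRPL44, a protein with an RNase III-like fold near the tunnel exit, had 496, 452 and 607 in control and 98.8, 199 and 168 in arsenite. Its log2 fold change was -1.78 ± 0.38, and without GM18505 it was -1.52 and no longer passed (edgeR adjusted p = 0.10). MRPS27, a pentatricopeptide repeat protein of the small subunit, had 884, 636 and 732 in control and 327, 157 and 162 in arsenite (log2 fold change -1.87 ± 0.37). GM18505 was the highest culture of MRPS27 in both groups. MRPS31, a mitochondria-specific protein of the small subunit, had 420, 518 and 782 in control and 114, 178 and 154 in arsenite (log2 fold change -1.92 ± 0.38). MRPL50, a mitochondria-specific protein of the large subunit, had 168, 204.1 and 214 in control and 31.8, 72.3 and 46.5 in arsenite (log2 fold change -2.02 ± 0.41).

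**Figure D2:**
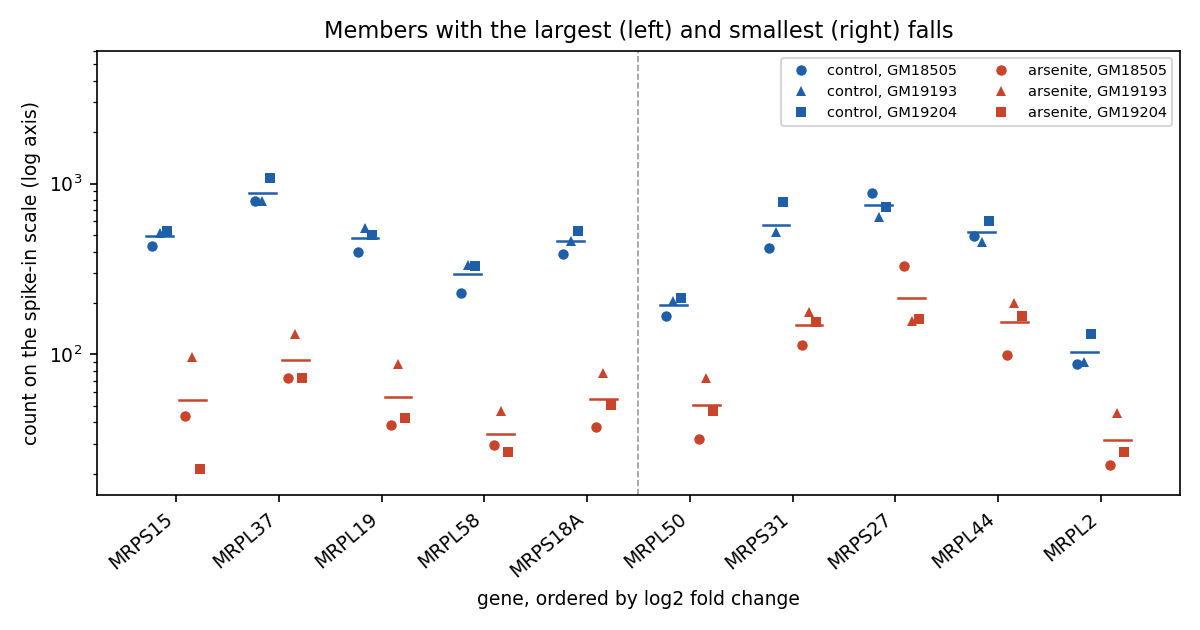
Counts on the spike-in scale (vertical log axis) of the 5 MRPs with the largest and the 5 with the smallest falls among those with a mean of at least 50 counts. Symbols are the 3 cell lines, colours the groups, and lines the group means; in each of the 10 genes the 3 arsenite cultures lie below the 3 control cultures.

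The genes outside this range were thinly read. MRPL38 had 59, 61 and 58 raw counts in control and 22, 40 and 28 in arsenite, a log2 fold change of -1.10 ± 0.41 on the spike-in scale (SE, edgeR adjusted p = 0.0117). It no longer passed in edgeR without GM18505 (adjusted p = 0.108), without GM19204 (adjusted p = 0.0935), with T libraries alone (adjusted p = 0.0549) or without any scaling of the counts (adjusted p = 0.0771). MRPL30 had 19, 20 and 21 raw counts in control and 8, 13 and 13 in arsenite.

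Both subunits fell. Of the large subunit 48 of 49 genes passed as lower with a median log2 fold change of -2.61, and of the small subunit 26 of 26 with a median of -2.53. Genes with a bacterial homologue (43 of 44 lower, median -2.59) and mitochondria-specific genes (31 of 31 lower, median -2.54) had medians within 0.05 of each other on this log2 scale. Split further, the medians ran from -2.61 for mitochondria-specific proteins of the large subunit to -2.45 for those of the small subunit. No test was made between these lists.

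Within the large subunit 9 of 9 proteins of the central protuberance were lower (median -2.50, from -3.14 in MRPL58 to -1.10 in MRPL38). Of the proteins around the peptide exit tunnel 6 of 6 were lower, with a median of -2.39, among them MRPL23 at -3.02 ± 0.39 (SE). MRPL45, which holds the ribosome to the inner membrane, had 163, 176 and 188 in control and 44.7, 33.1 and 29.7 in arsenite, a log2 fold change of -2.31 ± 0.41 on the spike-in scale. MRPL45 was the only named gene of this list with its smallest fall in GM18505. The proteins of the stalk that recruits translation factors, MRPL10 and MRPL11, had log2 fold changes of -2.77 ± 0.42 and -2.58 ± 0.41. MRPS30, a large subunit protein in spite of its name, had 488, 504 and 576 in control and 62.3, 122 and 75.4 in arsenite, a log2 fold change of -2.64 ± 0.40.

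In the small subunit DAP3, a GTP-binding protein first described in apoptosis, had 579, 675 and 915 in control and 87.1, 156 and 109 in arsenite, a log2 fold change of -2.64 ± 0.39 (SE). MRPS12, the homologue of the bacterial protein at the decoding centre, had 299, 337 and 412 in control and 43.5, 101 and 54.9 in arsenite, a log2 fold change of -2.46 ± 0.41. In both genes GM19193 was the highest of the arsenite cultures but not of the control cultures. The 3 MRPs related to bacterial S18 all passed as lower: MRPS18A at -3.10 ± 0.41, MRPS18B at -2.42 ± 0.38 and MRPS18C at -2.28 ± 0.41. MRPS36, outside both subunits, was at -2.64 ± 0.42.

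**Figure D3:**
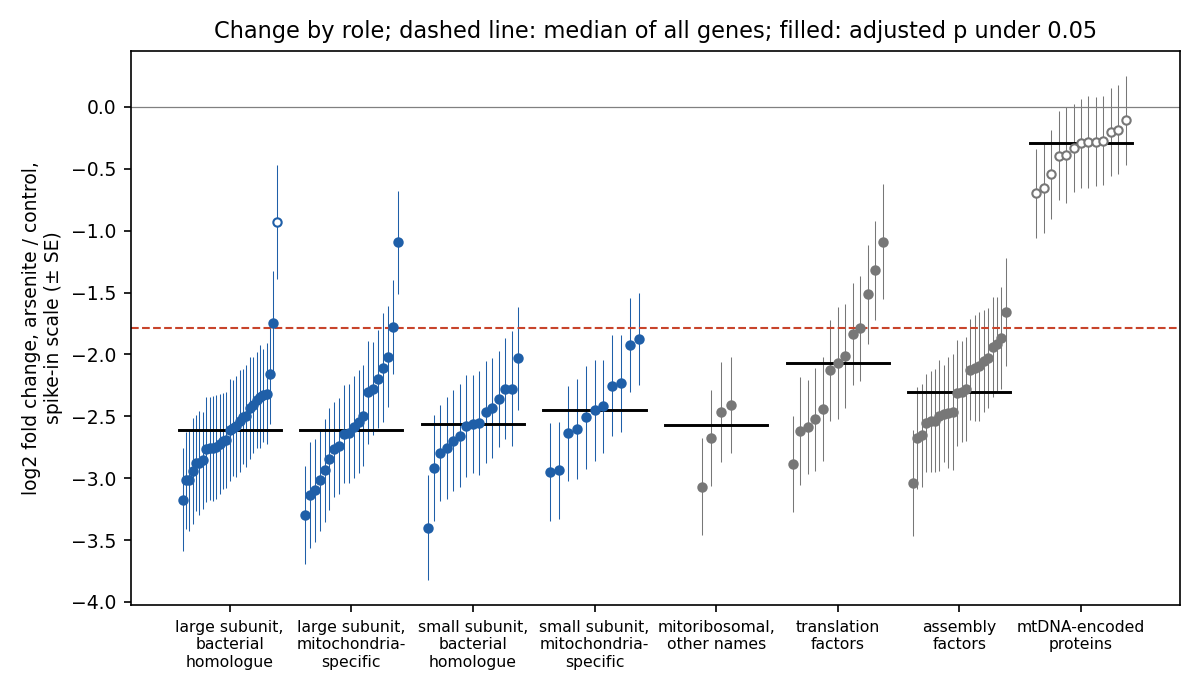
Log2 fold change on the spike-in scale (vertical axis, ± SE) of each MRP by subunit and origin (blue) and of related mitochondrial lists (grey), with list medians as black bars and the median of all genes, -1.78, as a dashed line. Filled points passed an adjusted p under 0.05; MRPL30 and the 13 proteins encoded by mitochondrial DNA are open.

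The other genes of mitochondrial translation fell as well. The 4 mitoribosomal proteins with other names, PTCD3, AURKAIP1, CHCHD1 and GADD45GIP1, were all lower, with a median of -2.57 and AURKAIP1 the lowest at -3.07. Of the translation factors of mitochondria 13 of 13 were lower with a median of -2.07, from the elongation factor TUFM at -2.89 to MTRF1L, a release factor, at -1.09. Relative to TMM 5 of the 13 were lower, where 26.6% of all genes were. Of the assembly factors 22 of 22 measured were lower with a median of -2.31, from MALSU1 at -3.04 to NGRN at -1.66. Relative to TMM 7 of the 22 were lower, near the share of all genes. The translation and assembly factors had median mean counts of 104 and 119, beside 245 for the MRPs. The part of read depth in these calls was not tested. The nuclear-encoded subunits of the respiratory chain (72 of 73 lower, median -2.56) and the cytosolic ribosomal proteins (79 of 80 lower, median -2.70) had medians on either side of that of the MRPs. Relative to TMM 53 of the 73 and 59 of the 80 were lower, with medians of -0.75 and -0.88. A C followed by at least 4 pyrimidines at the annotated start, the mark of the TOP mRNAs to which cytosolic ribosomal protein mRNAs belong, was present in 42 of 63 of those genes, in 4 of 67 MRP genes (5.97%) and in 5.47% of measured protein-coding genes. The footprints on the 13 mRNAs that mitochondrial ribosomes themselves translate gave another value: 0 of 13 passed in edgeR on the spike-in scale, in either direction and also at an unadjusted p under 0.05, and their median was -0.29. In limma on counts without normalization 0 of 13 passed, and in DESeq2 on the spike-in scale 2 did. Their share of gene counts went from 0.401%, 0.406% and 0.648% in control to 0.999%, 1.10% and 1.59% in arsenite, and relative to TMM 13 of 13 were higher.

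**Figure D4:**
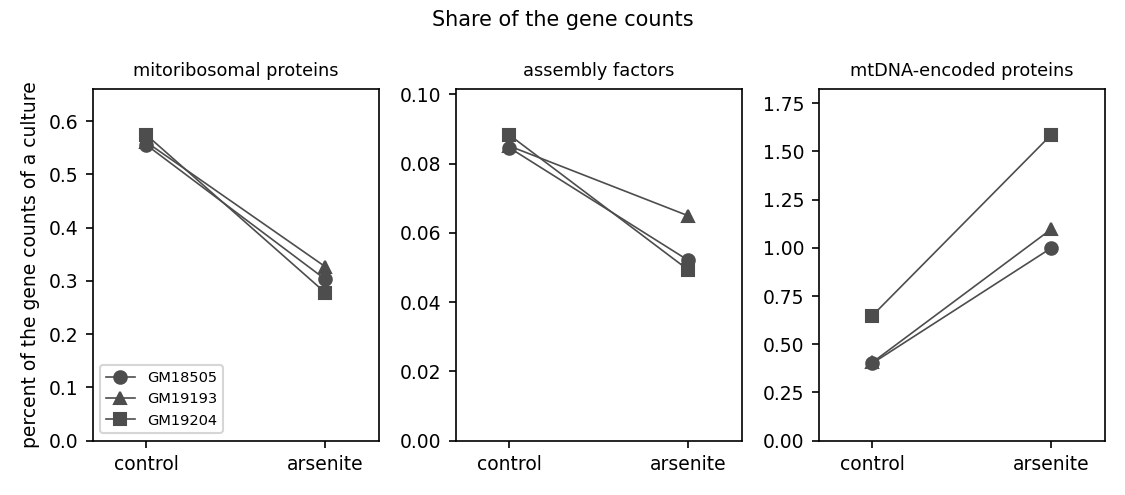
Share of a culture's gene counts (vertical axes, percent, each from 0) taken by the 76 MRPs, the 22 measured assembly factors and the 13 proteins encoded by mitochondrial DNA, in control and arsenite cultures of the 3 cell lines, with a line joining each pair. The MRP share goes from 0.555 to 0.574% down to 0.278 to 0.327%, and the share of the mitochondrially encoded proteins goes up in each line.

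Relative to the other genes the MRPs were also lower, as were most respiratory chain subunits and cytosolic ribosomal proteins above. TMM scaling, which sets the bulk of genes near 0 (median of all genes 0.028), gave a median log2 fold change of -0.76 for the MRPs. On this scale 63 of 76 were lower, where 26.6% of all genes were, and MRPL38 alone was higher, where 27.8% of all genes were. Of 1757 other protein-coding genes with mean counts of 105 to 456 and coding lengths of 195 to 1317 bases, 922 were lower and 187 higher. In CPM 64 of 76 had all arsenite cultures below all control cultures (31.3% of all genes) and MRPL30 and MRPL38 all above (21.4% of all genes). MRPL38 had 9.39, 11.9 and 8.97 CPM in control and 16.6, 16.3 and 11.96 CPM in arsenite (TMM log2 fold change 0.70, edgeR adjusted p = 0.0463). MRPL30 had 3.02, 3.91 and 3.25 CPM in control and 6.03, 5.31 and 5.55 CPM in arsenite (TMM log2 fold change 0.87, edgeR adjusted p = 0.0749). The direction of both genes thus turned with the scale, as did those of MRPL2 (0.072) and MRPL44 (0.053), which did not pass on the TMM scale. The other 9 that did not pass had TMM log2 fold changes from -0.48 in MRPL45 to -0.038 in MRPS27. With only genes of a mean count of at least 50 in the TMM fit, 39 of the 72 MRPs left were lower, where 23.0% of the genes in that fit were.

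The size of the fall went with read depth and, less, with length over genes in general, and the MRPs are short and well read. Over 10783 other protein-coding genes Spearman's rho with the log2 fold change was -0.55 for the mean count and 0.20 for the coding length, as descriptions across genes of the same 6 cultures. Over the 76 MRPs these values were -0.27 and -0.13. Other protein-coding genes had a median log2 fold change of -1.90. The median was -2.16 for the 4031 with a mean count between the 10th and 90th percentile of the MRPs (105 to 456 counts) and -2.30 for the 1757 that also had a coding length in the range of the MRPs. From 200 to 400 counts the 34 MRPs had a median of -2.62 and 1704 other protein-coding genes one of -2.23. From 400 to 1000 counts the 15 MRPs had -2.69 and 1202 others -2.36. The distance of the MRPs was smaller beside genes of like depth and length than beside all genes, and the distance that remained was not tested.

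**Figure D5:**
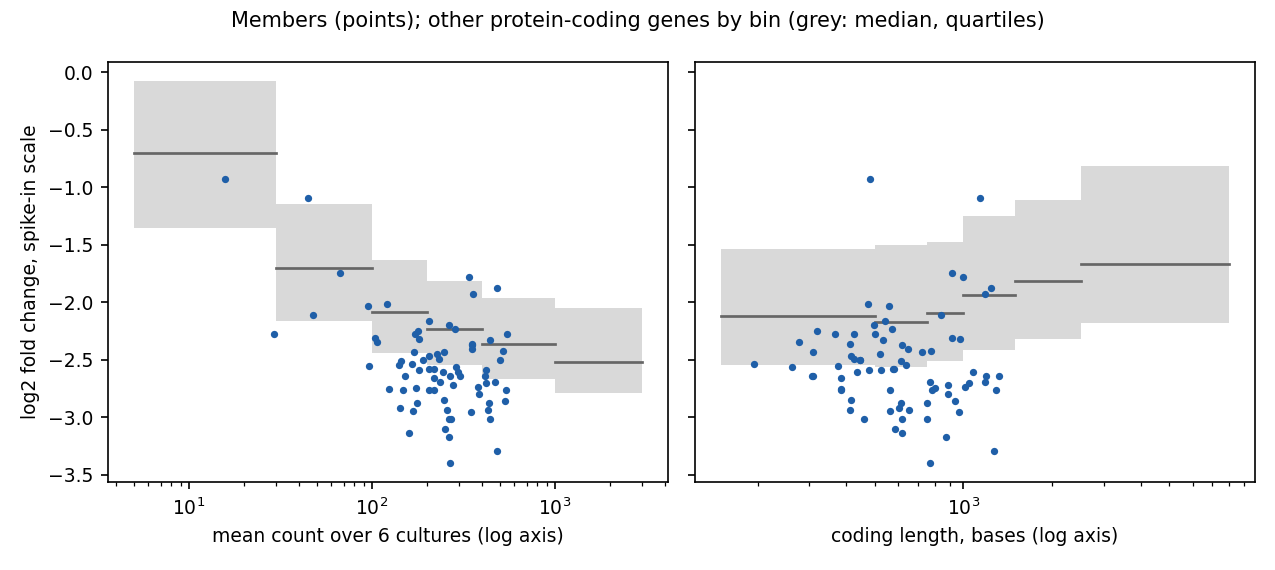
Log2 fold change on the spike-in scale (vertical axis) of each MRP (points) against its mean count (left) and coding length (right), both on log axes, with the median and quartiles of other protein-coding genes by bin in grey; the outermost bins are drawn to arbitrary ends. Most MRPs lie below the grey median of their bin, and the 2 highest, MRPL30 and MRPL38, have under 50 counts.

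The depth of the fall differed between the culture pairs of the 3 lines. Each line gave a single culture per group, and these received different oligomer pools. Line, culture, pool and loading therefore cannot be told apart. In GM18505 the MRPs had a median log2 fold change of -2.68, in GM19193 of -1.998 and in GM19204 of -2.99, beside -1.88, -1.29 and -2.22 over all genes. The distance between both medians was thus alike in the 3 lines (SD 0.05, n = 3). On the spike-in scale 61 of the 76 genes fell most in GM19204 and the other 15 in GM18505, while 71 fell least in GM19193. In raw counts the MRP sum fell most in GM18505, from 34899 to 4021. It went from 37133 to 6509 in GM19204 and from 28673 to 8003 in GM19193. The order of GM18505 and GM19204 thus depends on the scale. A line's spike-in factor enters all its genes alike, with SEs of 0.07 to 0.16 on the log2 scale per culture. These SEs give the scatter over the 7 oligomers and do not cover variation in loading or between cultures. Over the MRPs Spearman's rho of the line values was 0.30, 0.61 and 0.60 for GM18505 with GM19193, GM18505 with GM19204 and GM19193 with GM19204, as descriptions over genes that share the 6 cultures. T and U libraries, sequenced from the same cultures, gave log2 fold changes that differed by a median of 0.23 per MRP and by at most 0.92, with a Spearman's rho of 0.602 over the 76 genes.

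The level of an MRP seldom differed between the cell lines. In edgeR's test of cell line on the TMM scale 2 of 76 passed, where 12.2% of all genes did. MRPS35, a mitochondria-specific protein of the small subunit, had 82.9, 138 and 74.1 TMM-scaled CPM in the control cultures of GM18505, GM19193 and GM19204 and 42.3, 63.9 and 28.8 in the arsenite cultures (edgeR adjusted p = 0.00797). GM19193 was the highest line in both groups. MRPS27 had 163, 97.3 and 98.5 in control and 226, 60.0 and 102 in arsenite (edgeR adjusted p = 0.0188), with GM18505 the highest in both. The next 3 by p, MRPS21 (edgeR adjusted p = 0.0687), MRPL42 (0.0703) and MRPS31 (0.0923), did not pass. MRPL42 was highest in GM19193 in both groups, and MRPS21 lowest there.

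The size of the fall was set beside the promoter letters. The 20 genes with the YY1 letters had a median log2 fold change of -2.43 and the 47 without them -2.60. With and without the ETS letters the medians were -2.55 and -2.58, and with and without the NRF1 letters -2.43 and -2.58. The distances between these medians were not tested. The 35 MRPs with an annotated pseudogene named after them had a median of -2.58, beside -2.59 for the 41 without. Reads that fit several places were not kept in the mapping, and how many each gene lost was not measured. The 61 MRPs without an overlapping gene on their strand were all lower, with a median of -2.61, and the 15 with one had a median of -2.49.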

How the data were processed

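Counts per gene and counts per oligomer were used, from 12 libraries. Per the paper's methods and the labels, the authors discarded reads that matched rRNA, tRNA or snoRNA, mapped the rest to GRCh38 with TopHat2 (at most 2 mismatches, unique hits only, GENCODE release 37) and counted with featureCounts of Subread (tool versions: not given in the sources used here). These deposited counts are not normalized, and hold genes with at least 1 count in every library. Symbols and positions came from GENCODE release 44 (12343 of 12357 identifiers annotated, 12020 with a symbol). Treated cultures received 134 µM sodium arsenite.

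T and U counts were summed per culture and tested with edgeR 4.0.16 (R 4.3.3, quasi-likelihood, two-sided, cell line and treatment in the model, Benjamini-Hochberg over all genes at 0.05), with library sizes from the spike-in scale (mean over oligomers of log2 count less log2 nominal concentration) or TMM. The pool of each culture and the make-up of the pools, on which the spike-in scale rests, were read from the paper and not from the labels. A line's own log2 ratio used a pseudocount of 0.25. Deviations from the group means correlated over 8265 genes at 0.64 to 0.70 between cultures of the same line. The values between lines, -0.27 or below, add nothing, since deviations from a mean of 3 cultures sum to 0. Alternatives used DESeq2 1.42.0 on the summed counts and limma 3.58.1 on the 12 libraries. The limma fits took T and U libraries of a culture as separate samples, so their p-values count libraries of the same culture as replicates. Each line gives 1 culture per group, and the edgeR p-values rest on a spread between these cultures that is shared over genes. On the spike-in scale the sharing was almost complete, and the SEs of the MRPs ran only from 0.37 to 0.47. The p-values on that scale therefore do not measure a gene's own spread over the lines. The median log2 fold change of the MRPs itself had an SD of 0.51 between lines. Members and lists were chosen with earlier results of these data known. The named genes are, by rule, the 5 largest and 5 smallest log2 fold changes at a mean count of at least 50, the 5 highest and 3 lowest control densities, the 5 smallest p between cell lines, the stalk and S18 lists, 6 proteins of known role and any not called or higher.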

Additional observations from a re-analysis of the deposited data

Results flagged for a closer look

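Relative to TMM, 5 MRPs moved in opposite directions in different cell lines, with T and U libraries of the line on the same side of 0. The values are log2 changes, as the mean over T and U, and the differences between lines were not tested. MRPS27 was at 0.53 in GM18505 and -0.60 in GM19193, a difference of 1.13. MRPS24, with a mean of 29 counts, was at 0.17 in GM19193 and -1.27 in GM18505, a difference of 1.44. MRPL46, with a mean of 47.7 counts, was at 0.25 in GM19193 and -0.59 in GM19204, a difference of 0.84. MRPL44 was at 0.38 in GM19204 and -0.40 in GM18505, a difference of 0.77. MRPS31 was at 0.024 in GM18505 and -0.14 in GM19193, a difference of 0.17. In fits over all lines on the spike-in scale, T and U libraries differed in treatment effect by a median of 0.23 per MRP. This is more than the difference of MRPS31. The largest such distance, 0.92, was that of MRPL55 and exceeds the differences of MRPL44 and MRPL46. MRPL44 itself had -1.79 with T and -1.73 with U libraries, and MRPL46 -2.01 and -2.11. These fits use another scale than the changes per line, so they do not give the error within a single line. On the spike-in scale none of the 76 had opposite signs in this way.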

How the results depend on the processing

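The count of lower MRPs was 75 in the main fit on the spike-in scale, where 74.1% of all genes were lower, so it says little by itself. It stayed between 72 and 76 in 15 of 16 other settings. Among these were counts without scaling and limma without normalization, which do not use that scale, and limma after RUVg. RUVg took its factors from the same oligomers, here matched between pools by rank of nominal concentration. MRPL30 passed as lower in fits on the 12 separate libraries, those of limma among them. With TMM the count of lower MRPs was 63, where 26.6% of all genes were lower. On the spike-in scale, leaving out a line took this count to 73 to 75. No replicate block, that is, no term for the cell line, left it at 75, and took the count on the TMM scale from 63 to 52 lower and from 1 to 0 higher, while over all genes 26.6% went to 17.7% lower and 27.8% to 19.4% higher. The median of the MRPs was -0.76 with TMM in place of the spike-in scale, which also gave 1 higher. Less the median of all genes, it was -0.74 among genes of at least 10 counts and -0.50 among those of at least 50, where the other genes left in the fit had fallen more. Lower MRPs relative to TMM were 54 to 57 without a line and 39 at 50 counts. The share of all genes stands above for the fit at 50 counts, and is not given for the fits without a line. The single higher gene was lost (0) with T or U libraries alone, without each of the lines, at 50 counts, with library size only and with DESeq2, and upper quartile scaling gave 2. The cell line test on the spike-in scale gave 0 in place of 2 (9.71% of all genes in place of 12.2%), and 3 at an unadjusted p under 0.05. With TMM, MRPL2 (0.072), MRPL30 (0.87), MRPL38 (0.70) and MRPL44 (0.053) turned. The cause was not tested. Counting error limits MRPs under 50 counts, and 3 cultures a group limit every p.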
